A study of Setaria viridis with 13 samples.

Results

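In a grass leaf the cells near the base are the youngest, and the blade changes from growing tissue fed by older leaves to photosynthetic tissue as it leaves the enclosing sheaths. Setaria viridis (green millet) is a C4 grass, in which carbon is first fixed in the mesophyll and then passed to the bundle sheath around the veins. Developing leaves of such plants are often cut into segments along their length to follow this change. In the samples used here base is a label, and the labels do not say which leaf part held the youngest cells. The genes described here were high in the parts labelled base and tip of leaf 3 and low in its lower and mid sections.

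They were chosen by their values in those 4 leaf parts. Values were FPKM (fragments per kilobase of transcript and relative to all fragments of the sample), and the transcript with the highest mean stood for each gene. A gene was taken when base and tip were both at FPKM 10 or more, within 3-fold of each other, and each at least 3 times both the lower and the mid section. Of 35471 genes, 9 met the rule. The levels in the 4 leaf parts are therefore a description. The other 9 samples of the study entered only through the choice of transcript, whose mean was taken over all samples.

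All samples came from wild-type plants of accession A10 grown in hydroponics, with no treatment. The leaf parts were taken from leaf 3 at 10 days after germination (stage V3). The lower section lay below the ligule of leaf 2 (the ligule is the flap where blade meets sheath), the mid section above that ligule, the base above the ligule of leaf 3 itself, and the tip at the end of the leaf. The other samples were the coleoptile at 3 days (VE), the V3 bulk shoot and vegetative meristem at 10 days, the V5 bulk shoots, bulk roots and inflorescence meristem at 15 days, the R bulk shoots at 20 days, and panicles before anthesis at 22 days and after it at 25 days. Each sample had 1 column of values in which its 3 biological replicates were merged. Replicate error is therefore unknown, no test was made, and no error can be given for the order of neighbouring levels. Sequencing depth is unknown.

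The labels do not grade the leaf parts as mature or young, and they do not say whether the parts came from the same leaves. The gene IDs are not paired with names in the files used here, so no role can be given to any of the 9 genes and no tissue could be checked by its marker genes. In whole-tissue RNA, fewer cells of a type and less RNA per cell cannot be told apart.

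The pattern was rare. At FPKM 10 or more in both base and tip were 4138 genes, and in 3969 of them base and tip lay within 3-fold. Of these, 37 stood 3-fold over the lower section and 11 over the mid section. The 9 that stood over both were 0.227% of the 3969 and 0.0254% of all genes. The reverse pattern, with lower and mid sections at FPKM 10 or more, within 3-fold and each 3 times base and tip, was met by 175 genes.

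**Figure D1:**
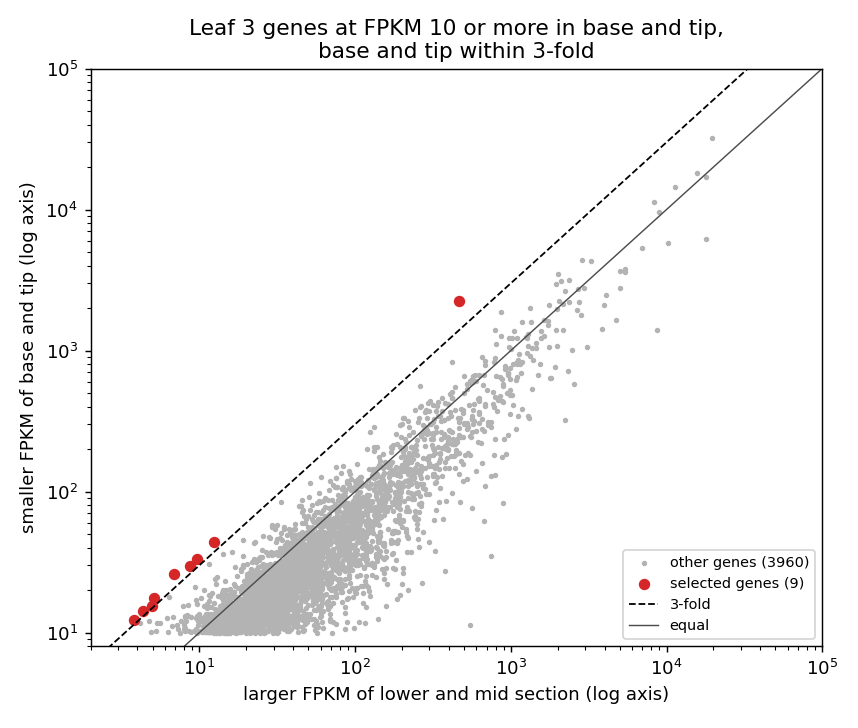
Each point is 1 of the 3969 genes at FPKM 10 or more in leaf 3 base and tip and within 3-fold between them, with the larger FPKM of the lower and mid sections on the x axis and the smaller FPKM of base and tip on the y axis, both on log scales. The 9 selected genes (red) lie above the dashed 3-fold line, 8 of them at the low end of the x axis and 1, Si020824m.g, at 464.

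Both counts moved with the scaling between samples. The median ratio of 9792 widely expressed genes put the base 0.45 and 0.46 below the lower and mid sections on the log2 scale, and the tip 0.24 and 0.25 below them. Of the summed FPKM, the 10 top genes took 24.8% in the base and 22.9% in the tip, against 17.6% in the lower and 16.5% in the mid section. After rescaling by the median ratio, 26 genes met the rule and 88 the reverse, and the 26 held all of the 9. Rounding of the deposited values to 2 decimals could not change the 9.

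In the deposited values all members but Si020824m.g lay close to the 3-fold threshold over the sections. Si020824m.g had the largest ratio of the smaller of base and tip over the larger of the 2 sections, at 4.83, and the other 8 ran from 3.10 to 3.76. After median-ratio rescaling this ratio was 5.70 in Si020824m.g, and the other 8 ran from 4.28 to 5.18. As deposited, Si029662m.g, at 3.10, was the last inside this threshold and Si022964m.g, at 2.83, the first outside. In all, 19 genes failed only this threshold and reached a ratio of 2. Si022485m.g was the last inside the FPKM of 10, with 12.3 at the base, and Si026870m.g, with 7.88, was the first outside. Si009448m.g, with a tip 2.95 times its base, was the last inside the limit between base and tip, and Si003491m.g, at 3.07, was the first outside. All 4 genes that failed only this limit had the tip above the base, up to 89.9 times in Si005012m.g.

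Si020824m.g was by far the most abundant member. Its FPKM was 5077 in the base and 2240 in the tip, with 464 and 207 in the lower and mid sections, which made it the 13th most abundant gene of the base and the 33rd of the tip. It was the only 1 of the 9 with more in the base than in the tip and more in the lower than in the mid section. Outside leaf 3 it was at 1277 in the V3, 656 in the V5 and 293 in the R bulk shoots. It was at 74.1 in the panicle before anthesis and 260 after it, at 61.2 in the coleoptile, 36.8 in the vegetative and 25.5 in the inflorescence meristem, and at 1.27 in the root. The V3 and V5 bulk shoots stood above every other sample outside leaf 3, and the highest and lowest of these samples differed 1009-fold.

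Si009547m.g and Si009448m.g had nearly the same profile. The lower section, mid section, base and tip of leaf 3 held Si009547m.g at FPKM 6.89, 12.4, 44.3 and 112. It was at 43.6, 59.1 and 38.1 in the V3, V5 and R bulk shoots, 16.8 and 17.3 in the panicles before and after anthesis, 9.85 in the coleoptile, 1.91 in the vegetative and 4.54 in the inflorescence meristem, and 0.257 in the root. The gene was thus highest at the leaf tip, next in the V5 bulk shoot, the leaf base and the other bulk shoots, lower in panicles, and lowest in the root.

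Si009448m.g was at 3.47, 5.11, 17.5 and 51.7 in the lower section, mid section, base and tip. It was at 19.1, 26.3 and 16.9 in the V3, V5 and R bulk shoots, 7.57 and 6.84 in the panicles before and after anthesis, 3.86 in the coleoptile, 0.892 in the vegetative and 1.81 in the inflorescence meristem, and 0.117 in the root. In all 13 samples Si009547m.g was above it, by 1.99 to 2.55 times. Over the 9 samples outside leaf 3 their log2(FPKM + 1) values had a Pearson r of 0.994, a description over samples that share a plant line and library method. An r of this size was not particular to the pair, as Si002034m.g, not a member, had 0.993 with Si009547m.g. Whether Si009547m.g and Si009448m.g share reads was not tested.

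Si034620m.g and Si035740m.g were highest in the root. Si034620m.g was at FPKM 4.10, 9.70, 33.1 and 75.1 in the lower section, mid section, base and tip, and at 220 in the root. It was at 13.8, 9.85 and 5.82 in the V3, V5 and R bulk shoots, 11.7 and 13.9 in the panicles before and after anthesis, 5.36 in the inflorescence meristem, and 1.50 in both the vegetative meristem and the coleoptile. The root was thus 2.93 times the leaf tip and stood far above every other sample outside leaf 3.

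Si035740m.g was at 3.32, 6.89, 25.9 and 58.7 in the lower section, mid section, base and tip, and at 168 in the root. It was at 10.4, 7.82 and 4.74 in the V3, V5 and R bulk shoots, 9.63 and 10.6 in the panicles before and after anthesis, 3.96 in the inflorescence and 1.46 in the vegetative meristem, and 1.16 in the coleoptile. Its order of samples was close to that of Si034620m.g, which was above it by 1.02 to 1.41 times in all 13 samples, with a Pearson r of 0.999 outside leaf 3. The SD of their log2(FPKM + 1) difference over the 13 samples was 0.11. A partner at least as steady was found for 474 of the 11755 genes that reached FPKM 10 in any sample (4.03%). Next to its partner, the steadiest gene against either of them had an SD of 0.81. Whether the pair shares reads was not tested, since the files used here hold no sequences, and the 2 genes may not be separate measurements.

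**Figure D2:**
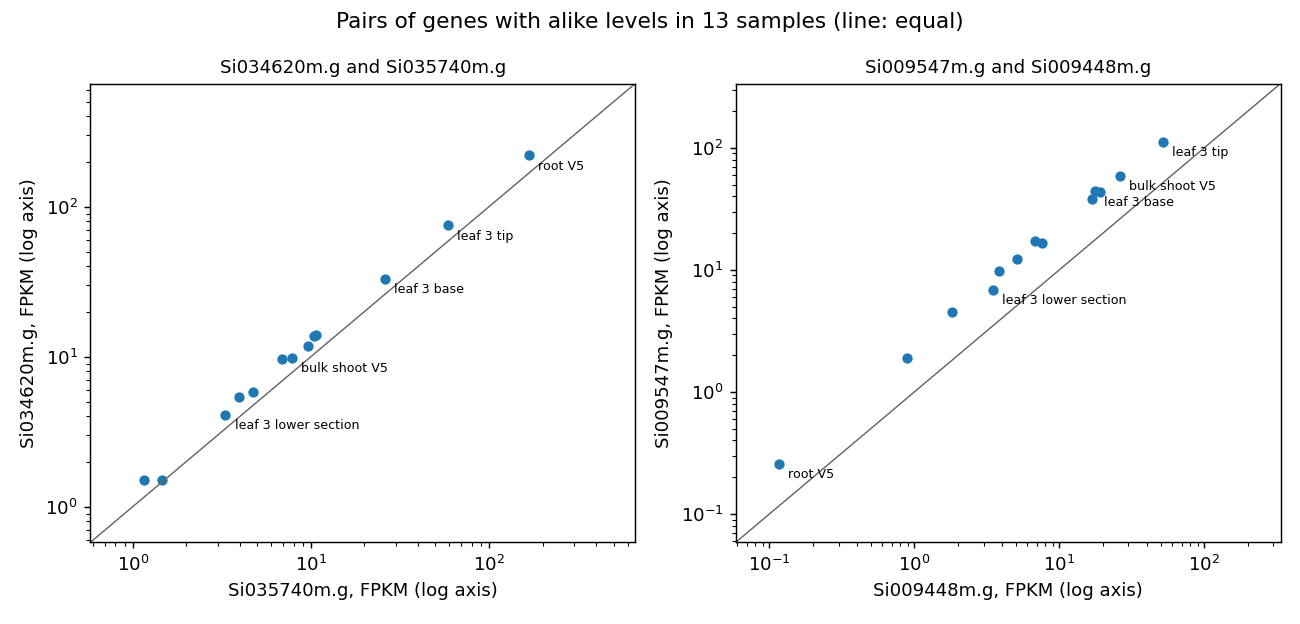
FPKM of both genes of a pair in each of the 13 samples, on log axes, with Si034620m.g against Si035740m.g on the left and Si009547m.g against Si009448m.g on the right. Each point is 1 sample with its replicates merged, and all points lie above the line of equal values, at ratios of 1.02 to 1.41 on the left and 1.99 to 2.55 on the right.

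Si030670m.g was the member most evenly spread over tissues. It was at FPKM 6.84, 8.65, 29.7 and 62.6 in the lower section, mid section, base and tip, and at 32.6, 40.1 and 27.4 in the V3, V5 and R bulk shoots. It was at 26.7 in the inflorescence and 6.89 in the vegetative meristem, 14.1 in the coleoptile, 8.06 and 8.58 in the panicles before and after anthesis, and 4.35 in the root. Its inflorescence meristem level was close to that of the R bulk shoot, and its 9 levels outside leaf 3 covered a 9.21-fold range, the narrowest among the 8 members with no value of 0.

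Si029662m.g was highest in leaf 3 tip and base and in the bulk shoots. It was at FPKM 1.91, 4.98, 15.4 and 26.5 in the lower section, mid section, base and tip, and at 11.1, 22.6 and 17.9 in the V3, V5 and R bulk shoots. It was at 4.58 in the vegetative and 0.670 in the inflorescence meristem, 2.68 and 4.86 in the panicles before and after anthesis, 0.853 in the root and 0.257 in the coleoptile. It was lower in the inflorescence than in the vegetative meristem, as were Si020824m.g and Si040620m.g, while the other 6 were higher there. The share of all genes with either order was not taken, so nothing is read from this count.

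Si040620m.g was the weakest member outside leaf 3. It was at FPKM 2.53, 4.31, 14.1 and 15.7 in the lower section, mid section, base and tip. It was at 4.35, 6.57 and 6.11 in the V3, V5 and R bulk shoots, 6.67 in the root, 1.43 in the vegetative and 0.275 in the inflorescence meristem, 0.741 in the coleoptile and 0.157 in the panicle before anthesis, and was listed at 0 in the panicle after anthesis. No sample outside leaf 3 reached its base or tip, and root and V5 shoot were nearly level.

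Si022485m.g was highest in the panicles. It was at FPKM 2.60, 3.82, 12.3 and 13.9 in the lower section, mid section, base and tip, 36.5 in the panicle before anthesis and 104 after it. It was at 13.2, 12.7 and 21.8 in the V3, V5 and R bulk shoots, 1.93 in the inflorescence and 0.434 in the vegetative meristem, 0.110 in the coleoptile and 0.0353 in the root. Both panicle values stood above every leaf part, and it was the only member with more in the R than in the V5 bulk shoot.

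**Figure D3:**
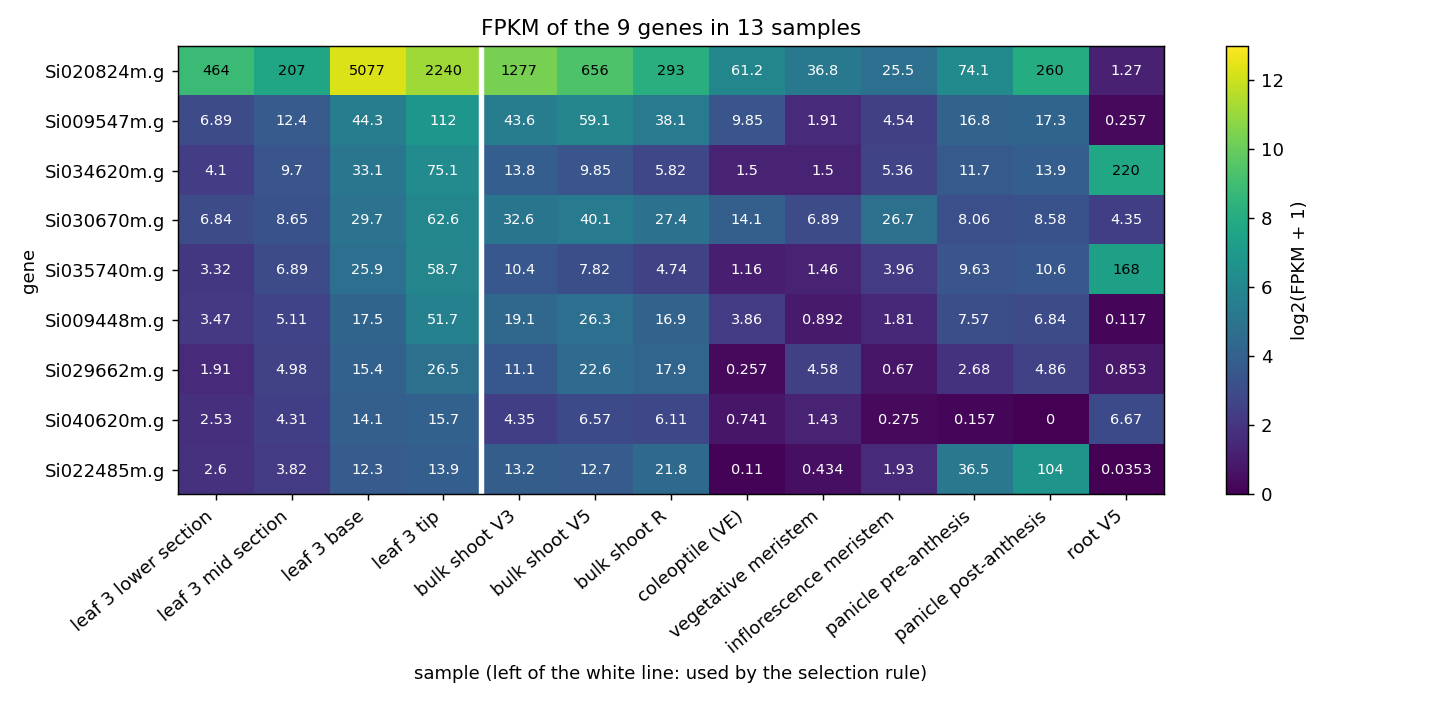
FPKM of the 9 genes (rows, ordered by the mean of base and tip) in the 13 samples (columns), with colour showing log2(FPKM + 1) and the white line parting the 4 leaf parts used by the rule from the 9 other samples. Si034620m.g and Si035740m.g are highest in the root (220 and 168), Si022485m.g in the panicle after anthesis (104), and the other 6 in leaf 3 base or tip.

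Along leaf 3, in the values that the rule used, the tip was above the base in 8 of the 9 and the mid above the lower section in 8 of the 9. Si020824m.g was the exception in both. Among the 3969 genes the tip was above the base in 62.8% and the mid above the lower section in 52.7%. After median-ratio rescaling the tip was above the base in 6 of the 9, as Si040620m.g and Si022485m.g turned. The V3 bulk shoot, a separate sample of the same age, was above both sections in all 9 (28.8% of the 3969) and below both base and tip in 6 (47.7% of the 3969). Since the members were chosen as low in the sections and high in base and tip, nothing is read from these counts.

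In all 9 each of the 3 bulk shoots was above the coleoptile and both meristems. The same held for 13.4% of the 13175 genes at FPKM 5 in any of these samples, and for 26% of the 3969 genes at FPKM 10 and within 3-fold in base and tip. Under median-ratio rescaling it held for 7 of the 9 and no longer for Si034620m.g and Si030670m.g, which had R bulk shoot values only just over those of the inflorescence meristem. Both shares are over deposited values and were not taken after rescaling, so the 7 cannot be set against them. The highest sample outside leaf 3 was a bulk shoot in 5 members, the root in 3 and the panicle after anthesis in 1. Those with the root include Si034620m.g and Si035740m.g, which may not be separate measurements. Among the 3969 genes it was a bulk shoot in 38.1%, the root in 18.9% and the panicle after anthesis in 12.4%.

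The size of these differences was read with 1 rule for all genes, namely log2(FPKM + 1) values 2 or more apart and FPKM 5 or more in the higher sample. Comparisons with the V5 bulk shoot share that sample and are given side by side only. The shares and medians beside the members are over all genes tested, not over genes chosen as high in leaf. How far the members differ from other genes high in base and tip was therefore not tested in these comparisons. In log2 FPKM, median-ratio rescaling moved the V5 bulk shoot by 0.29 against the vegetative and 0.34 against the inflorescence meristem. It moved that shoot by -0.17 against root and coleoptile and by -0.29 against the V3 bulk shoot. The R bulk shoot moved by -0.41 against the panicle before anthesis. Against the vegetative meristem, 7 of the 9 members were higher in the V5 bulk shoot and 0 lower, where 7.83% of 11347 genes were higher and 2.32% lower. The members' differences ran from 1.64 in Si040620m.g to 4.37 in Si009547m.g, with a median of 2.38 against -0.41 over all genes.

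Against the inflorescence meristem, 6 of the 9 were higher in the V5 bulk shoot and 0 lower, where 7.15% of 11974 genes were higher and 6.97% lower. The 3 that were not called were Si030670m.g, Si034620m.g and Si035740m.g, and the lowest difference was 0.57 in Si030670m.g. The median was 2.57 against -0.48 over all genes. Against the coleoptile, 8 of the 9 were higher in the V5 bulk shoot and 0 lower, where 6.56% of 10355 genes were higher and 2.62% lower. Si030670m.g, at a difference of 1.44, was the 1 not called, and Si029662m.g had the largest, at 4.23. Of the 8, 3 had an FPKM under 10 in the V5 bulk shoot, and with a minimum of 10 the count was 5.

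The members differed in their root levels. In the comparison of V5 bulk shoot and root, 6 of the 9 were higher in the shoot and 2 in the root, where 17.5% of 12099 genes were higher in the shoot and 16.7% in the root. The differences ran from 8.18 in Si020824m.g to -4.35 in Si034620m.g and -4.26 in Si035740m.g, and Si040620m.g was level at -0.02. In the root 4 members were under FPKM 1 (44.4%), 3 at 1 to 10 and 2 at 10 or more (22.2%). The 2 at 10 or more, also the 2 called higher in the root, were Si034620m.g and Si035740m.g. They may not be separate measurements, so nothing is read from these counts of 2. Of the 3969 genes at FPKM 10 and within 3-fold in base and tip, 10.4% were under 1 in the root and 63.9% at 10 or more.

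**Figure D4:**
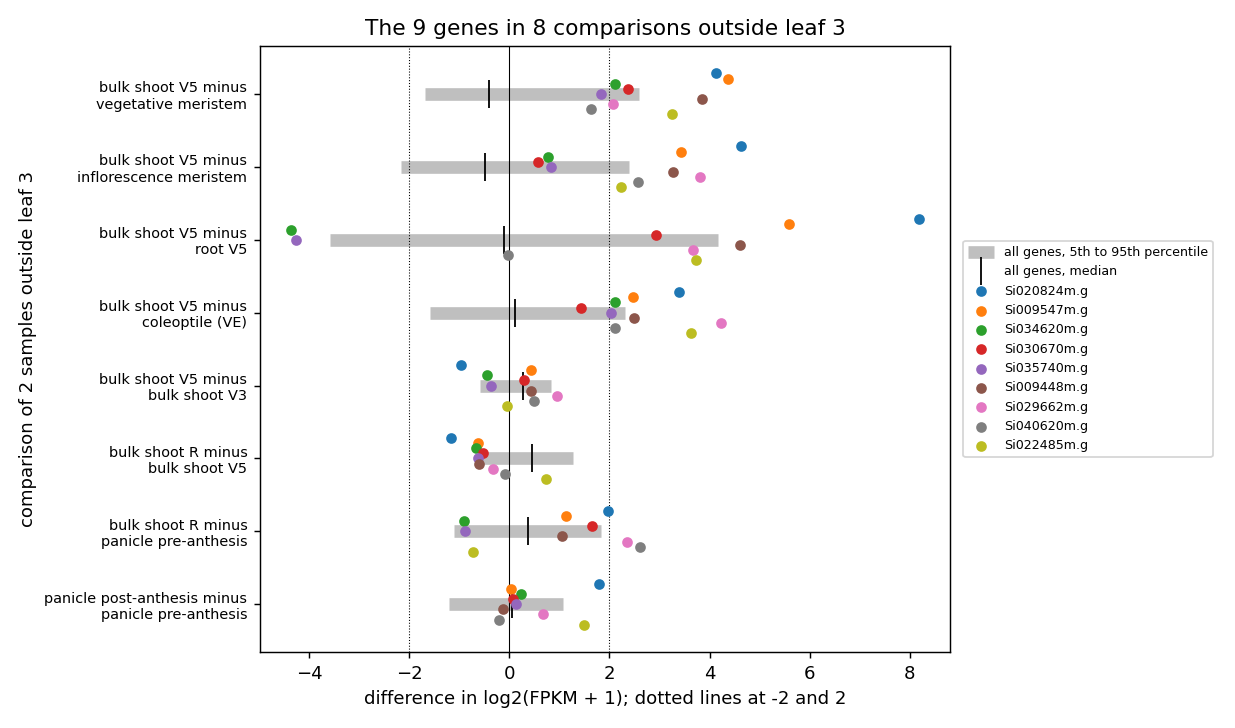
Difference in log2(FPKM + 1) of the 9 genes (coloured points) in 8 comparisons of 2 samples outside leaf 3, with a grey bar from the 5th to the 95th percentile and a black tick at the median of all genes at FPKM 5 or more in either sample. Members lie right of 0 in all points of the meristem and coleoptile comparisons, spread from -4.35 to 8.18 against the root, and lie within 2 of 0 between shoots and between panicles.

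None of the members passed the size rule between bulk shoots of different age, and few genes of the table did. From V3 to V5, 0 of the 9 passed the size rule in either direction, where 0.218% of 9620 genes were higher at V5 and 0.0936% lower. The differences ran from -0.96 in Si020824m.g to 0.96 in Si029662m.g, both outside the range from the 5th to the 95th percentile of all genes tested (-0.58 to 0.84). From V5 to R, 0 of the 9 passed again, where 0.988% of 11542 genes were higher at R and 0.0866% lower. In 8 of the 9 the R value was below the V5 value, by 0.09 to 1.16 on the log2 scale, while 17.5% of the genes tested were below. The median over members was -0.61 against 0.46 over all genes, whose 5th percentile was -0.56. In log2 FPKM, median-ratio rescaling moves every gene by -0.50 in this comparison, in the same direction, so that the 8 could not turn under it. In log2(FPKM + 1) the shift depends on the level of the gene. After this rescaling 49% of the genes tested were below. After scaling to equal sums 8 of the 9 were below.

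Between the R bulk shoot and the panicle before anthesis, 2 of the 9 were higher in the shoot and 0 lower, where 3.59% of 11852 genes were higher and 1.05% lower. These were Si029662m.g, with a difference of 2.36, and Si040620m.g, with 2.62. After median-ratio rescaling neither passed, Si029662m.g at 1.94 and Si040620m.g at 2.18 with its R value then under FPKM 5. Si034620m.g, Si035740m.g and Si022485m.g were above the R bulk shoot in that panicle, by 0.90, 0.89 and 0.72 on the log2 scale.

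Between the panicles, 0 of the 9 passed the rule in either direction, and 7 of the 9 reached the FPKM of 5 in either panicle. Of all 10572 genes tested, 2% were higher after anthesis and 2.08% lower. The largest differences were those of Si020824m.g, at 1.80, and Si022485m.g, at 1.49, both higher after anthesis. The other 7 lay between -0.21 and 0.67.

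The profiles outside leaf 3 did not form 1 group. Over those 9 samples Si009448m.g and Si009547m.g followed the median profile of the members most closely (Pearson r of 0.923 and 0.906), with Si022485m.g next at 0.839. Least like it were Si035740m.g (-0.040), Si034620m.g (-0.018) and Si040620m.g (0.230). Since the median was made from the same 9 genes, these values describe their spread. Si020824m.g was close to Si009547m.g (0.942) and Si009448m.g (0.931), while its r with the root-high Si035740m.g was -0.414.

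The number of genes with a like profile outside leaf 3 differed widely between members. Among 11755 genes that reached FPKM 10 in any sample, 171 had a Pearson r of at least 0.95 with Si009547m.g over the 9 samples, 154 with Si009448m.g and 35 with Si020824m.g, against 13 with Si022485m.g, 11 with Si029662m.g, 8 with Si035740m.g, 6 with Si034620m.g, 4 with Si040620m.g and 0 with Si030670m.g. The most alike gene outside the 9 was Si002034m.g for Si009547m.g, at an r of 0.993. In leaf 3 it was at 22.8, 29.1, 56.3 and 112 in the lower section, mid section, base and tip, a ratio of 1.94 where the rule asks for 3. For Si020824m.g it was Si020856m.g (0.987), at 19618, 14066, 48644 and 32093 in these parts, a ratio of 1.64. Si002034m.g and Si020856m.g were named after their values had been seen. For the most alike genes of Si009448m.g, Si030670m.g, Si040620m.g and Si034620m.g the ratio was lower, at 1.35, 1.09, 0.90 and 0.88. For those of Si029662m.g, Si035740m.g and Si022485m.g it was 0.49, 0.14 and 0.011.

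Transcripts of 1 gene had nearly the same values. Of the 9 genes 7 had 1 transcript in the table, Si009547m.g had 2 and Si034620m.g had 3, whose log2 values differed by at most 0.01 and 0.10 in any sample. Start site offsets, signed whole numbers of nt per gene whose sign convention is not given in the sources used here, were deposited for 3 of the 9. They were -14 for Si020824m.g, 12 for Si022485m.g and 85 for Si030670m.g. Over all 4900 genes with an offset the median was -7, with quartiles of -20 and 24, and 90.96% of offsets were at or below that of Si030670m.g.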

How the data were processed

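The expression table deposited by the authors holds log2 values per transcript for 13 samples, rounded to 2 decimals, with 3 biological replicates merged into 1 column. They were read as log2(FPKM + 1), where both the log base of 2 and the pseudocount of 1 are inferences from the values. Per the submitters' processing notes the authors used STAR and DESeq2, with no role given. Per the labels' protocols, polyadenylated RNA was read as paired-end reads of 100 nt after SMARTer cDNA synthesis. The sources used here do not give the genome build, the annotation or the way of merging. FPKM depends on the total of each sample, so abundant genes lower all others there, and a value of 0 is reported as listed at 0. The deposited start site offsets carry no stated method.

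The table's 40599 transcripts were reduced to 35471 genes by the highest mean FPKM. None of the IDs matched the 34587 genes of the Setaria_viridis_v4.0 reference table. Named were all 9 members, the genes nearest outside each threshold, and the most alike genes. Members, lists and rules were chosen with earlier results of these data known. Planned lists of genes by name could not be used. The code of the selection and the size rule was run on simulated data with planted changes and an assumed spread. Since replicate error is unknown, that run cannot tell how reliable calls near a threshold are. Alternatives were other thresholds, pseudocounts, summed transcripts and 2 scalings. Python 3.11.15, pandas 2.3.3, numpy 2.4.6 and matplotlib 3.10.9 were used.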

Additional observations from a re-analysis of the deposited data

How the results depend on the processing

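The 9 genes stayed the same with transcripts summed and with samples scaled to equal sums. Their number was 5 with an FPKM minimum of 20, 28 with a ratio of 2 over the sections, 1 with a ratio of 4, 3 with base and tip within 2-fold, and 26 after median-ratio rescaling. With genes chosen anew, the share under FPKM 1 in the root (44.4%) was 20% with the minimum of 20 and 0% with the ratio of 4. The median offset (12 nt, 3 genes) was -1 with an FPKM minimum of 5, 35.5 with 20, -2 with the ratio of 2, -14 with the ratio of 4 and 5 after rescaling. A pseudocount of 0.1 moved the median level from 1.32 to 0.68 in coleoptile and vegetative meristem and from 1.18 to 0.45 in the root. Summed transcripts moved the first 2 to 2.28 and 2.27. With an FPKM minimum of 10, 5 members were called above the coleoptile and 1 above the panicle before anthesis. The latter count, 2 as reported, was 0 after median-ratio rescaling. With a cut of 1, it was 6, 1 member was lower at R than V5, and 2 were higher after anthesis. No called difference of a single member turned its sign under these settings. No paired analysis was possible because each sample had 1 merged column. Depth is unknown, and low FPKM values are the least precise.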

Other observations

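The 17 genes that joined under median-ratio rescaling met the same leaf rule on rescaled values, and their likeness to the 9 was not tested. In 16 of the 17 each bulk shoot was, as deposited, above the coleoptile and both meristems, against 26% of the 3969 genes. In the root 6 were under FPKM 1 and 6 at 10 or more, against 10.4% and 63.9% of the 3969. The root was the highest of all samples in 2, a count given without a share over other genes. Of the 17, 15 had a ratio of base and tip over the sections under 3 as deposited, the lowest at 2.19. Si003491m.g and Si026870m.g, which failed only 1 other limit as deposited, were also among them. Si026870m.g was at FPKM 75.1 in the root against 10.5 in the leaf tip, 7.88 in the base, 2.20 in the mid and 1.07 in the lower section. For Si003491m.g the tip had 406, the base 132, the mid section 33.3 and the lower section 20.4, with FPKM 243 in the V3 bulk shoot and 46.8 in the root.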
